A study of Rattus norvegicus with 20 samples.

Results

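The 2 mature strands of the rat miR-139 hairpin, miR-139-5p and miR-139-3p, were followed across soleus muscle and dorsal root ganglia (DRGs) after injury of the sciatic nerve. They were taken by name from the array design, 2 of the 350 miRNAs on it, and were chosen by their soleus signals, which an earlier reading of the arrays had shown moving apart. The soleus values of both strands are therefore given as a description, with no test.

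Each tissue had 10 arrays from male Sprague-Dawley rats, 3 for denervation, 3 for entrapment, 3 for decompression and 1 for the sham control. For denervation the right sciatic nerve was cut, a segment was removed, and the tissues were taken after 6 months. For entrapment a loose silastic tube was left around the nerve for 6 months, and for decompression this tube was taken off after 6 months and the rats were kept for 3 months more. The DRGs were those of the L4 to L6 segments on the injured side, and both tissues were bulk samples. The labels hold 1 sham array per tissue and do not say whether it carries RNA of a single rat or of a pool, and the group sizes in the methods do not settle this. All the differences from sham in a tissue therefore share 1 array, whose own spread is not known, and the sham group has no age match for the 3 months after decompression in the labels.

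A miRNA hairpin is cut by Dicer into a duplex of the 5′ strand (5p) and the 3′ strand (3p), and one of them is usually kept by an Argonaute protein while the other is degraded. The kept strand finds messenger RNAs mainly through its seed, bases 2 to 8 from the 5′ end, so that the strands of one hairpin act on different targets. miR-139-5p is known as a repressor of growth signalling, with the insulin-like growth factor receptor Igf1r among its targets, and less is known of miR-139-3p. The hairpin lies in the host gene Pde2a, which encodes a cyclic nucleotide phosphodiesterase.

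Both mature sequences were found in the RefSeq table (GRCr8). They are shown because every comparison turns on telling these strands apart, and capitals mark the seeds.

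rno-miR-139-5p: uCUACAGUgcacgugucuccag

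rno-miR-139-3p: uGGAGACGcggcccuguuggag

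The 5p strand was at chr1:165290865-165290886 and the 3p strand at chr1:165290901-165290922, both on the plus strand. In the hairpin, at chr1:165290859-165290926, the capitals mark the 2 mature strands.

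rno-mir-139: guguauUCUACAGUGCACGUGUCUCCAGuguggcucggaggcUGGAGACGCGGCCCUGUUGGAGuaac

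The hairpin started 55236 bases downstream of the annotated start of Pde2a, whose span on chromosome 1 runs from 165235623 to 165327466, and the table used here gives no exons. The GC content was 54.5% in the 5p strand and 68.2% in the 3p strand. The seeds differed, and no other of the 724 mature rat miRNAs in the table shared either of them. The longest run of Watson-Crick pairs between the strands was 7 bases, from bases 15 to 21 of 5p and bases 1 to 7 of 3p, and it covered most of the 3p seed.

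The signal is the total intensity that the scanner software gave for a miRNA after background subtraction, in arbitrary units, with the software's own error and its call of whether the miRNA was detected. The arrays differed in brightness, and the 75th percentile of the signal ranged 6.20-fold over the soleus arrays and 1.62-fold over the DRG arrays. Scaled signals were therefore set to a common percentile within a tissue. Before log2 was taken, low scaled signals were raised to a floor, 2.71 in soleus and 2.31 in the DRGs. Of the 5 muscle miRNAs taken as markers (miR-1, miR-133a, miR-133b, miR-206 and miR-499), 4 were detected on all 10 soleus arrays, the exception being miR-499 on the sham array. Of the 5 sensory neuron markers, all were detected on all 10 DRG arrays and none was detected on all soleus arrays, while 4 of the 5 muscle markers were also detected on every DRG array.

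In soleus, miR-139-3p was high on the sham array and lower on every injury array. The other strand, miR-139-5p, was detected on 2 of 3 denervation arrays and not on the sham array, the dimmest of the 10. The scanner signal of miR-139-3p was 156.929 ± 20.6 (the scanner's error) on the sham array and was detected there. After denervation it was 31.8 ± 4.08, 87.9 ± 8.47 and 57.4 ± 22.6, and all 3 arrays detected it. After entrapment it was 33.2 ± 12.4, 42.9 ± 8.46 and 1.14 ± 2.55, and only the second of these was called detected. After decompression it was 2.26 ± 2.63, -3.89 ± 4.46 and 2.35 ± 2.83, and none of the 3 arrays detected it. The number of arrays with a detection call thus went from all 3 in denervation through 1 in entrapment to 0 in decompression. The 7 negative control features ranged from -54.8 to 35.6 on the soleus arrays. The signals of denervation 1, entrapment 1, entrapment 3 and all decompression arrays lay inside this range. In bulk tissue, fewer cells of a type that holds a miRNA and less of it per cell cannot be told apart.

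These scanner signals were not the only deposited values for miR-139-3p. A deposited table of processed values matches the scanner signals up to 1 constant per array. It departs from them by more than 1% at 27 soleus values, and 4 of the 27 belong to miR-139-3p. On the sham array the processed value times the constant was 456.929, against a scanner signal of 156.929, so that scanner minus processed was -300. On denervation 3 it was 7.38 against 57.4, on entrapment 1 it was 3.15 against 33.2, and on entrapment 2 it was 2.90 against 42.9. The scanner signal was thus lower than the processed one on the sham array and higher on these 3 injury arrays. On the other 6 soleus arrays the sources were equal, apart from a processed floor of 0.538 in place of the negative signal on decompression 2.

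**Figure D1:**
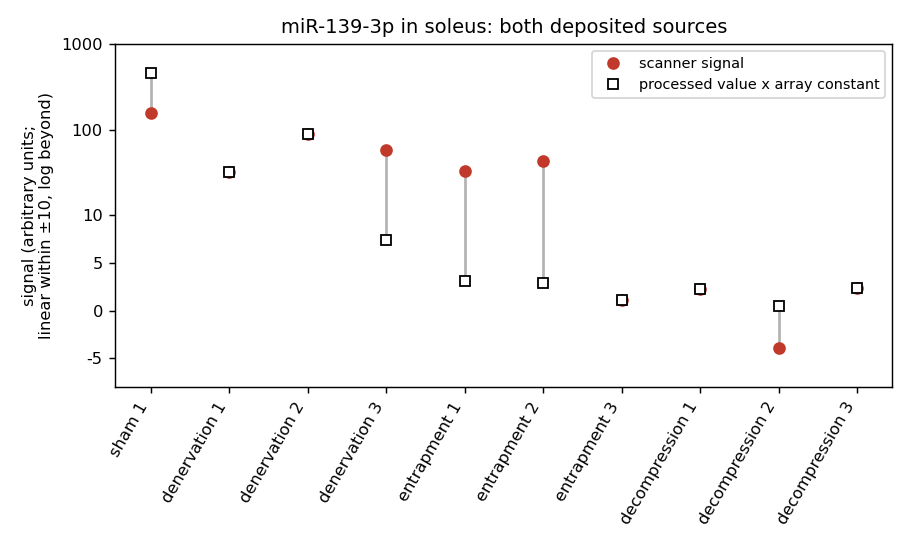
The signal of miR-139-3p on the 10 soleus arrays in both deposited sources (y axis, arbitrary units, linear within 10 of 0 and logarithmic beyond), with the scanner signal as a filled circle and the processed value times the array's constant as an open square. The sources part on the sham array (156.929 against 456.929), on denervation 3, on entrapment 1 and on entrapment 2, and at the negative signal of decompression 2.

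The number format also differed at these entries. Of 7860 signals in the 20 scanner files, 4 carried more than 6 significant digits, and 3 of the 4 were miR-139-3p on denervation 3, entrapment 1 and entrapment 2. The fourth was miR-204 on the soleus sham array. Of the 12 errors with more than 6 digits, 2 belonged to miR-139-3p. On these 3 arrays the error of miR-139-3p was also large for its signal, at 39.3%, 37.4% and 19.7%. Among the miRNAs of the same arrays with a signal near that of miR-139-3p (34, 23 and 19 miRNAs), the largest errors were 13.0%, 13.0% and 11.8%. Where both sources were equal, the error was 12.8% on denervation 1, inside the range of such miRNAs, and 9.64% on denervation 2, just above the largest of the 24 near it (9.62%). On the sham array, with the widest gap between the sources, it was 13.1%, and the largest error near it was 17.1%. Of the 19 differing values with a signal under 1000 in both sources, 9 differed by a multiple of 10 to within 0.5 units, among them all 4 of miR-139-3p. The files do not tell which source holds the measured signal, and the cause was not tested. The soleus results of miR-139-3p below rest on the scanner signals, and what they become with these 4 processed values is given beside them.

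For miR-139-5p the sources were equal on the soleus arrays, apart from the processed floor on the sham array. Its signal was 0.493 ± 2.23 on the sham array and was not detected there. After denervation it was 49.0 ± 4.95 and 44.3 ± 4.82 on the arrays that detected it and 4.71 ± 2.48 on denervation 3, which did not. Denervation 3 was a dim array, and its scaled signal of 11.8 stood nearer to the other scaled values of 35.6 and 18.1. The sham array was dimmer still. Its 75th percentile was 409, against 413 on denervation 3 and 1426 and 2539 on denervation 1 and 2. The scaled signal of miR-139-5p on the sham array was 1.25 ± 5.64. The part of array brightness in the detection calls was not tested. After entrapment the signal was 6.33 ± 2.44, 4.08 ± 2.44 and 1.19 ± 2.53, with a detection call for the first. After decompression it was 5.58 ± 2.63, 1.31 ± 4.47 and 16.4 ± 3.13, with a detection call for the last. High signals of miR-139-5p were found in denervation and, to a lower level, on 1 decompression array. Only the signals of denervation 1 and denervation 2 lay above the range of the negative control features in soleus.

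**Figure D2:**
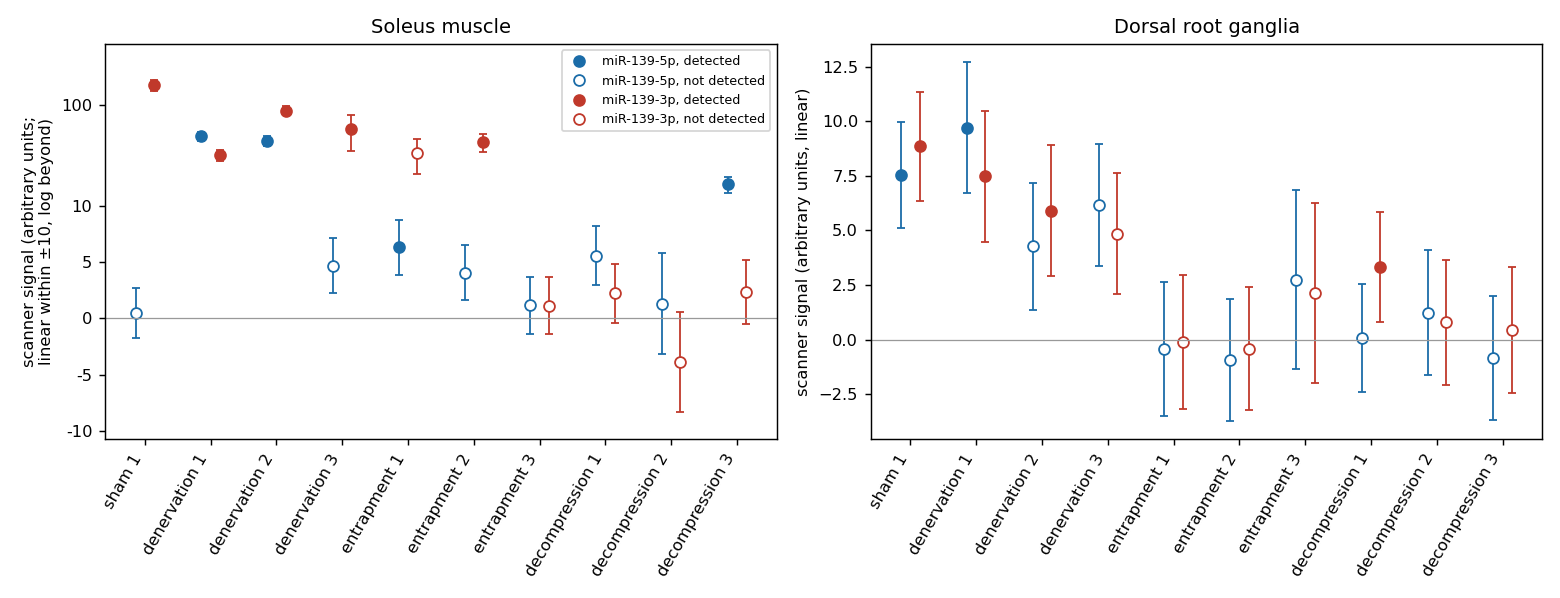
Scanner signal (y axis, arbitrary units) of miR-139-5p (blue) and miR-139-3p (red) on each of the 10 soleus arrays (left, linear within 10 of 0 and logarithmic beyond) and 10 DRG arrays (right, linear), with the scanner's error as bars and open circles where the miRNA was not detected. In soleus miR-139-3p was brightest on the sham array, where miR-139-5p was not detected, and in the DRGs both strands were higher on the sham and denervation arrays than on the other 6, with overlapping error bars between some of them.

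On the log2 scale, the soleus differences of miR-139-3p from sham were -4.10, -3.47 and -1.46 on the denervation arrays, a mean of -3.01 ± 1.38 (SD, n = 3), or 8.07-fold lower. They were -4.33, -3.82 and -7.20 on the entrapment arrays, a mean of -5.12 ± 1.82. After decompression all 3 arrays were at the floor, and the level was at least 144-fold lower than on the sham array. Here and below, such a bound takes the brighter group's mean against, for each dim array, the highest of the floor, the lowest positive signal of a detected miRNA on it and the strand's own signal. A bound holds for the scaling and floor used here and leaves out the scanner's error. miR-139-3p was at least 2-fold lower than sham on each of the 3 arrays in all 3 groups, as were, of the 173 soleus miRNAs detected on at least 3 arrays, 18.5% in denervation, 27.2% in entrapment and 27.2% in decompression. The medians over all 173 were -0.07, -0.37 and -0.25. Among the 173 the difference of miR-139-3p ranked 10th from the lowest in denervation, 5th in entrapment and lowest in decompression. With the 4 processed values in place of the scanner values, the mean differences were -5.54 after denervation, -8.81 after entrapment and -8.81 after decompression, each the lowest of the 173, and the bound for decompression was 433-fold.

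Between injury groups, the scaled signal of miR-139-3p was 23.1, 35.9 and 144 after denervation, 19.7, 28.0 and 1.60 after entrapment, and below the floor on all decompression arrays. Denervation and entrapment overlapped, with a difference of -2.11 for entrapment minus denervation. With the 4 processed values they did not, with 18.5 to 35.9 after denervation and 1.60 to 1.89 after entrapment. Denervation and decompression did not overlap, and the bound put decompression at least 17.8-fold below denervation. This bound was 9.31-fold with the 4 processed values. Over all 173 miRNAs, 25.4% were lower in decompression than in denervation without overlap. Decompression and entrapment differed by -2.08, from signals at the floor on all decompression arrays and on entrapment 3, so that no fold is given. Both groups were at the floor with the 4 processed values, and the difference was 0.

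For miR-139-5p, the log2 differences from sham were 3.72, 2.74 and 2.13 on the denervation arrays, a mean of 2.86 ± 0.80 (SD, n = 3). Since the sham array did not detect it, the level after denervation was at least 3.06-fold higher. It was at least 2-fold higher than the floor value of sham on each of the 3 arrays, as were 15.6% of the 173 miRNAs. After entrapment the mean difference was 0.16 ± 0.27, and no array reached 2-fold. After decompression it was 1.16 ± 1.26, and 1 of 3 arrays passed 2-fold. Rises of at least 2-fold on each array were found for 11.0% of the miRNAs in entrapment and 13.3% in decompression. No fold is given for these groups, since their means were below the lowest positive signal of a detected miRNA on the sham array.

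The entrapment arrays of miR-139-5p, with scaled signals of 1.67 to 3.76, lay wholly below the denervation arrays, with 11.8 to 35.6. The difference of -2.70 was the second lowest of the 173, and 23.1% of miRNAs were lower in entrapment than in denervation without overlap. Decompression, with 1.42 to 15.3, overlapped both denervation and entrapment, and its differences from them were -1.70 and 1.01.

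**Figure D3:**
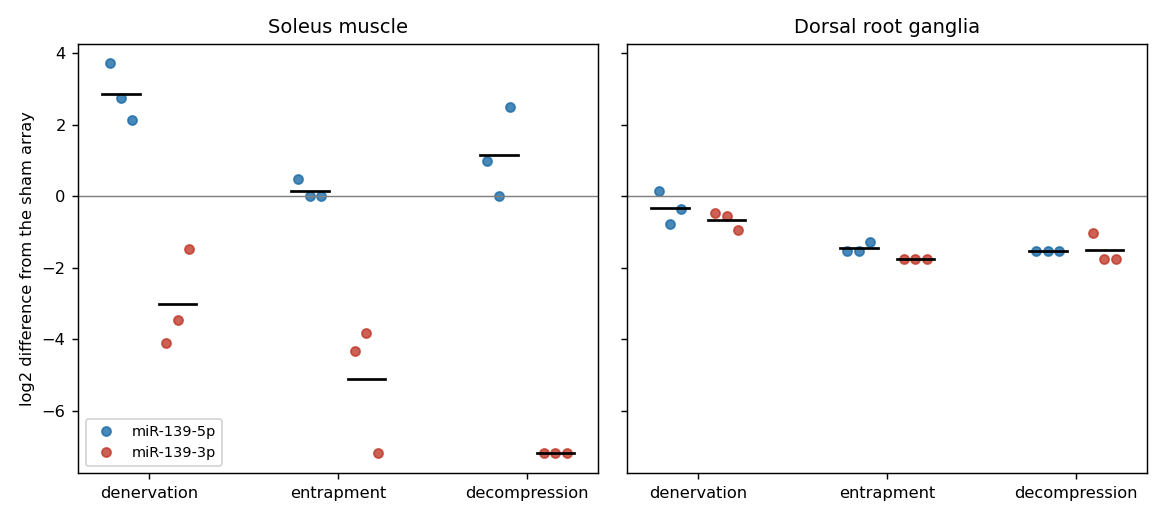
Log2 difference from the sham array of the same tissue (y axis) for miR-139-5p (blue) and miR-139-3p (red) on the arrays of each injury group (x axis), with horizontal bars at the group means, soleus on the left and DRGs on the right. In soleus all 9 injury arrays had miR-139-3p below sham and the 3 denervation arrays had miR-139-5p above it. In the DRGs the differences of both strands lay between -1.75 and 0.14, with the lower end set by the floor.

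The strands of one hairpin were compared only through their changes from the same sham array, since the levels of different probes cannot be set against each other. In soleus, the change of miR-139-3p minus that of miR-139-5p was -5.87 ± 2.13 log2 units in denervation, -5.28 ± 1.73 in entrapment and -8.36 ± 1.26 in decompression. Over the 9 injury arrays its mean was -6.50, with a range of -9.69 to -3.59, and it was negative on every one. All 9 differences share the sham array. Most of the hairpins compared below also kept a constant sign on all 9 arrays, miR-125a and miR-324 among them, so that this is not particular to miR-139. Since the sham array did not detect miR-139-5p and miR-139-3p was at the floor on 4 injury arrays, the sizes for miR-139 depend on the floor. With the 4 processed values the means were -8.47 ± 0.85, -9.01 ± 0.30 and -10.02 ± 1.29, and over the 9 arrays -9.17. Of the 79 hairpins with both strands on the array, 24 had both strands detected on enough soleus arrays to be compared. Their median absolute difference was 1.87. Values of -3.80 for miR-125a and -3.24 for miR-324 were the closest to that of miR-139, whose strands had been chosen for moving apart in soleus, so that its place among the 24 is no finding. Across the 10 soleus arrays the scaled log2 signals of the miR-139 strands had a Pearson correlation of 0.08 (0.13 with the 4 processed values), as a description over arrays that share the sham array and the scaling. The median over the 24 pairs was 0.25, and 15 of the 24 were positive.

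**Figure D4:**
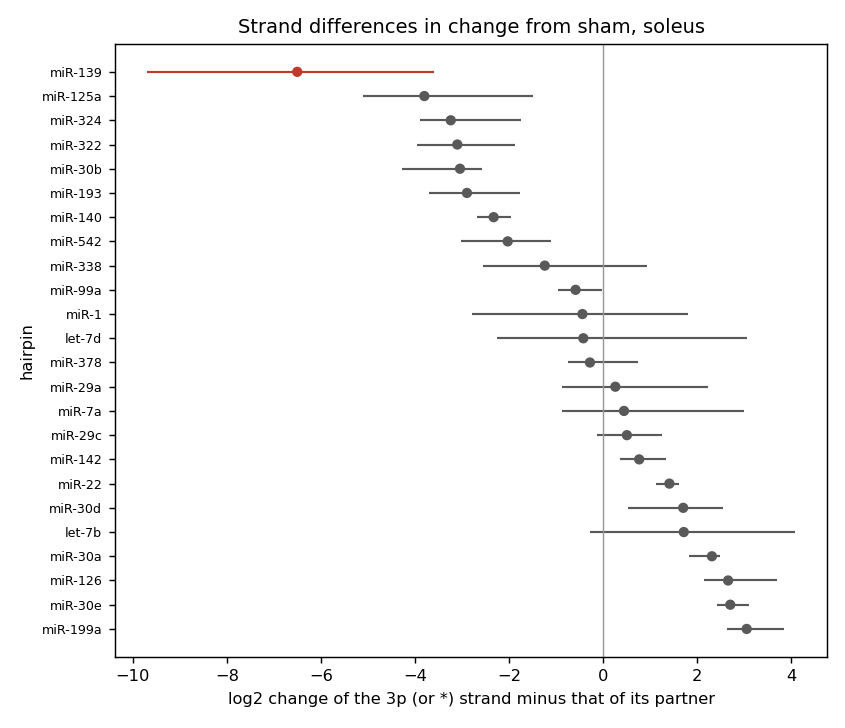
Strand difference in the change from sham in soleus, in log2 units (x axis), for the 24 hairpins with both strands detected on at least 3 arrays (y axis), taken as the 3p or star strand minus its partner. Points are means over the 9 injury arrays and lines run from the lowest to the highest array, with miR-139, chosen for this difference, in red at a mean of -6.50.

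The soleus miRNAs whose scaled log2 signals were most like miR-139-3p over the 10 arrays were miR-188 (Pearson correlation 0.87), miR-125a-3p (0.86) and miR-320 (0.85). With the 4 processed values they were miR-874, miR-878 and miR-743a, with correlations of 0.997, 0.990 and 0.990. The scaled signal of miR-139-3p was then 1156 on the sham array, 18.5 to 35.9 after denervation and below the floor on all other arrays. These correlations therefore rest largely on the sham array. For miR-139-5p the most alike were miR-30d* (0.79), miR-7a* (0.75) and miR-30b-5p (0.75). The lists for the strands shared no name.

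Marker lists of other cell types were read beside the soleus strands. All 4 leukocyte miRNAs were detected on the sham array and 3 of 4 on all arrays of each injury group. Their summed scaled signal was 681 on the sham array, 471 to 757 after denervation, 340 to 448 after entrapment and 311 to 439 after decompression. The endothelial pair, miR-126 and miR-126*, summed to 362 on the sham array, where miR-126* was not detected, and to 1044 to 1708 on the injury arrays. The sensory neuron markers were not detected on the sham array. The muscle sum was 196740 on the sham array and 56279 to 342043 on the injury arrays. This sum rests on the scanner signals, and both sources also differed for miR-1, miR-133a and miR-499. For miR-1 on the sham array the scanner signal was 4895, against 48095 for the processed value times the constant. On denervation 3 it was 113754 against 52444. The place of the sham array within the muscle range thus depends on the source, and the sum was not taken from the processed values. The red blood cell pair, miR-451 and miR-144, summed to 1179 on the sham array and 196 to 2258 on the injury arrays, and the glial pair, miR-338 and miR-219-5p, to 103 and 49.2 to 210. The part of these lists in the changes of miR-139 was not tested.

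In the DRGs both strands were near the detection limit. miR-139-3p was detected on 4 of the 10 arrays and miR-139-5p on 2, so that only miR-139-3p was among the 219 miRNAs tested. Of its 4 detection calls, 3 came from the sham and denervation arrays, 1 from decompression and none from entrapment, and the filter on detection thus let it in mainly through the groups where it was high. The signal of miR-139-3p was 8.84 ± 2.50 on the sham array, and it was 7.47 ± 2.98, 5.91 ± 2.98 and 4.86 ± 2.78 after denervation, the last not detected. After entrapment it was -0.0957 ± 3.06, -0.403 ± 2.81 and 2.13 ± 4.11, and none was detected. After decompression it was 3.33 ± 2.52, 0.798 ± 2.86 and 0.443 ± 2.86, with only the first detected. The sham and denervation arrays were thus higher than the entrapment and decompression arrays, but the nearest of them, denervation 3 and decompression 1, differed by less than the scanner's error of either. The 7 negative control features of the array ranged from -24.7 to 25.7 on the same arrays.

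In limma's fit across the 10 DRG arrays, miR-139-3p was lower than sham after entrapment, by a log2 difference of -1.75 (SE 0.29, adjusted p = 0.00344, lower on 3 of 3 arrays). As all 3 arrays were at the floor, this stands for at least 2.99-fold with the scaling used here. After decompression miR-139-3p was lower by -1.51 (SE 0.29, limma adjusted p = 0.00810, lower on 3 of 3 arrays). As 2 of these 3 arrays were at the floor, the size depends on the floor and no fold is given. At the floor the entrapment arrays had an SD of 0, so the SE and p-values of miR-139-3p depend on the floor as well. Lower calls were made for 17.4% of the 219 miRNAs in entrapment and for 16.4% in decompression, and 48.4% and 46.6% were below sham on all 3 arrays. After denervation the difference from sham was -0.65 (95% interval -1.33 to 0.02, limma adjusted p = 0.290) and did not pass. The calls in entrapment and decompression were lost with a pseudocount in place of the floor (limma adjusted p = 0.0546 and 0.138). They were also lost with the authors' processed values as their columns are named (limma adjusted p = 0.0758 and 0.0565). These columns are exchanged between both groups, as described below. Under the names of the scanner files the limma adjusted p was 0.0565 in entrapment and 0.0758 in decompression. With median scaling the differences were -1.31 and -0.94, and with quantile scaling they were -0.04 and 0.12.

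Entrapment was also lower than denervation in the DRGs, with a log2 difference of -1.10 (SE 0.21, limma adjusted p = 0.00346) that stands for at least 1.90-fold. The filter on detection let miR-139-3p in mainly through the sham and denervation arrays, and the entrapment arrays were all at the floor. The p-values against denervation depend on both and are no independent support for a difference. Decompression was lower than denervation by -0.85 (SE 0.21, limma adjusted p = 0.0127), a size that also depends on the floor. Of the 219 miRNAs, 32.9% were called lower in entrapment than in denervation and 27.9% in decompression. The call for decompression was lost without denervation 1 (limma adjusted p = 0.0514) and with median scaling or a pseudocount (0.124 and 0.104), and with quantile scaling the differences were 0.02 and 0.18. Decompression and entrapment differed by 0.25 (95% interval -0.23 to 0.72, limma adjusted p = 1).

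The signals of miR-139-5p in the DRGs, given without a test, ran close to those of miR-139-3p. The sham array gave 7.54 ± 2.42 and the denervation arrays 9.71 ± 3.00, 4.27 ± 2.92 and 6.17 ± 2.78, with detection calls for sham and denervation 1. The entrapment arrays gave -0.425 ± 3.05, -0.922 ± 2.79 and 2.75 ± 4.10. The decompression arrays gave 0.0620 ± 2.47, 1.25 ± 2.85 and -0.825 ± 2.84. None of these 6 arrays detected it. With the scaling used here, and the scanner's error left out, this puts its level at least 2.55-fold below sham in the entrapment group. In the decompression group it was at least 2.84-fold below sham on the same terms. With median scaling the mean log2 differences from sham were -0.96 and -1.09, and with quantile scaling 0 and 0.0053. After denervation the mean log2 difference was -0.34 ± 0.46 (SD, n = 3).

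The 3p change minus the 5p change in the DRGs was -0.31 ± 0.48 in denervation, -0.31 ± 0.14 in entrapment and 0.02 ± 0.43 in decompression, in log2 units. The group means in the DRGs thus lay within 1 unit of 0, and those in soleus between -8.36 and -5.28. The Pearson correlation of the strands over the 10 DRG arrays was 0.86. miR-324-3p (0.94), miR-125b* (0.93) and miR-347 (0.93) were the DRG miRNAs most like miR-139-3p, and miR-339-3p (0.98), miR-872* (0.97) and miR-138* (0.95) the most like miR-139-5p.

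On the 4 sham and denervation DRG arrays, the scaled signals were 4.08 to 7.80 for miR-139-3p and 3.85 to 7.31 for miR-139-5p. On the other 6 arrays they reached at most 3.86 and 2.74. Both strands were thus higher on all 4 than on all 6, as were 26.9% of the 219 miRNAs. Before scaling, 117 of the 219 miRNAs parted the arrays in this way, and so did control features of the array, 15 of 45 higher and 9 lower on the 4 arrays. The arrays of these groups and their handling cannot be told apart. Leukocyte miRNAs, with all 4 detected on every array, summed to 914 on the sham array, 691 to 1127 after denervation, 491 to 659 after entrapment and 741 to 979 after decompression. The glial pair summed to 8108 on the sham array and 9973 to 12654 on the injury arrays. The sums of the muscle, sensory neuron, red blood cell and endothelial lists on the sham array (327, 3696, 3049 and 630) lay inside the range of the injury arrays. The part of these lists in the change of miR-139 was not tested. In the processed table, the columns named for the 3 entrapment DRG arrays equal the scanner signals of the 3 decompression arrays, and the reverse. Entrapment and decompression in the DRGs are named here as the scanner files are labelled.

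Across tissues the strands are also described without a test, since their soleus signals chose them. Soleus and DRG arrays may come from the same rats. All 20 arrays were scaled to the percentile over the 102 miRNAs detected on every array, and the 4 group means of each tissue were averaged. The mean log2 signal of miR-139-3p was 4.63 in soleus and 2.11 in the DRGs, a difference of 2.52. It was 1.56 without the sham groups and 2.15 with the 4 processed values. For miR-139-5p the difference was 0.29, and it was 0.92 without the sham groups and 2.06 with quantile scaling.

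On this common scale the groups could be put in order of their mean log2 signal, as a description. For miR-139-3p the soleus sham array came first with a scaled signal of 357, then soleus denervation with 20.8 to 127 and soleus entrapment with 1.38 to 23.2. The DRG sham array followed with 8.60, DRG denervation with 4.25 to 6.17, DRG decompression with 0.604 to 4.79 and DRG entrapment with -0.530 to 2.56. Soleus decompression was last, with -3.61 to 1.92. From soleus denervation downwards, each group with 3 arrays overlapped the next one with 3 arrays, and the range of soleus entrapment held the DRG sham array. With the 4 processed values the soleus sham array was at 1041, soleus denervation at 16.3 to 31.7 and soleus entrapment at 1.38 to 1.61, level with soleus decompression at the end of the order.

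For miR-139-5p, soleus denervation came first with 10.4 to 32.0 and lay above the DRG sham array with 7.33 and DRG denervation with 4.46 to 7.76. Soleus decompression was next with 1.22 to 13.2 and overlapped all of these. DRG entrapment, with -1.21 to 3.30, soleus entrapment, with 1.45 to 3.23, the soleus sham array, with 1.12, and DRG decompression, with -1.13 to 1.47, followed. Both entrapment ranges and that of DRG decompression overlapped, and the soleus sham array lay inside the DRG ranges and below soleus entrapment. The soleus sham array thus stood first in the order of miR-139-3p and among the last in that of miR-139-5p.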

How the data were processed

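Cy3-labelled RNA of soleus muscle and DRGs was measured on 20 Agilent rat miRNA arrays of 1 colour. The labels describe amplification with Cy3-CTP and the study's methods a ligation of pCp-Cy3. Per the file headers, the deposited total gene signal is an intensity on a linear scale, background-subtracted and summed over the probes of a miRNA, with its error and a detection call. The submitters' processing notes name Agilent Feature Extraction 9.5.3. No normalization between arrays had been applied. A second table deposited by the authors gives a processed signal for each miRNA on each array, for which the methods mention GeneSpring GX and a LOWESS on rank-consistent features, with no settings.

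Of the 350 miRNAs, 348 carry 1 name in every file and were used. Arrays were scaled to the 75th percentile. In soleus it was taken over the 108 miRNAs that every array detected (a median of 148.5 of the 348 was detected per array) and over all 348 in the DRGs (median 195), and brought to the geometric mean of the percentiles. The floor was the median over arrays of the lowest positive scaled signal of a detected miRNA. miRNAs detected on at least 3 arrays were tested, 219 in the DRGs, or described beside the strands, 173 in soleus. limma 3.58.1 (lmFit and eBayes, R 4.3.3) was fitted to the DRG arrays with the group as the only term, two-sided, with Benjamini-Hochberg adjustment over all miRNAs tested at 0.05, with 6 residual degrees of freedom. The planned limma test between tissues is not reported, since the soleus signals chose the strands. The single sham array took the spread of the remaining groups. The p-values measure the spread between arrays after the floor was set, and the number of arrays limits the precision. Arrays at the floor add no spread to the fit of miR-139-3p in the DRGs.

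The strands, marker lists and tests were chosen with earlier results of these data known. The miRNAs named are both strands, for each strand and tissue the 3 with the highest Pearson correlation, the 3 hairpins with the largest strand difference, and the markers of muscle (5), sensory neurons (5), red blood cells (2), leukocytes (4), endothelium (2) and glia (2). Replicate numbers were not used to pair the arrays in the main fit. The deviations of same-numbered arrays correlated above 0.1 in 1 of 9 pairs in soleus and in 4 of 9 in the DRGs. In the DRGs the highest such correlation was 0.48, against 0.32 among other pairs, so that this count cannot exclude a pairing. Alternatives tried were median, quantile or no scaling, the percentile over the other of these sets, a pseudocount of 1, no filter, detection on all DRG arrays, only both groups compared, the authors' processed values, a replicate block and leaving out each injury array. Scripts were tested on simulated data. Slide and scan could not be read from the files used, so neither was tested as a batch. Other assays of the study were not used here. Sequences come from RefSeq (GRCr8). Python 3.11.15 with matplotlib 3.10.9 drew the figures.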

Additional observations from a re-analysis of the deposited data

How the results depend on the processing

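The soleus difference of miR-139-3p from sham was negative under all 8 alternatives in each injury group, but its size moved. In denervation it was -1.53 without scaling and -5.54 with the 4 processed values. In entrapment it was -3.30, -8.81 and, with all the authors' processed values, -7.15. In decompression it was -5.78, -8.81 and -8.97, and -5.11 with a pseudocount. The soleus difference of miR-139-5p from sham stayed positive. In denervation it was 1.88 with quantile scaling, 1.40 with a pseudocount and 4.90 with the authors' processed values, which gave 2.21 in entrapment. Decompression minus entrapment of miR-139-5p turned to -0.54 with them. Without scaling, the median of all soleus miRNAs rose by 1.39, 1.41 and 1.28 in the 3 groups, and miR-139-3p stood -2.85, -4.34 and -6.80 from it.

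For miR-139-3p in the DRGs, entrapment minus sham lost its call in limma with quantile scaling (-0.039, adjusted p = 0.918), a pseudocount (-2.71), the authors' processed values (-2.20) and these given to the arrays they equal (-2.46). Decompression minus sham lost it with a pseudocount (-1.95), the authors' values (-2.46), the same reassigned (-2.20) and only both groups in the fit (-1.51, adjusted p = 0.120), and turned to 0.12 with quantile scaling. That scaling also turned entrapment and decompression minus denervation, to 0.020 and 0.18. For miR-139-5p in the DRGs, entrapment minus sham was -1.77 without scaling, -0.96 with median scaling, 0 with quantile scaling, -2.42 with a pseudocount, -2.47 with the authors' values and -2.11 with these reassigned. Decompression minus sham was -1.92, -1.09, 0.0053, -2.63, -2.11 and -2.47. Denervation minus sham turned to 0.10 with quantile scaling. With no filter, the differences of miR-139-5p from sham stayed at -1.44 after entrapment and -1.52 after decompression. The p-values of that fit are not given. No array of these groups detected miR-139-5p, and its decompression values were all at the floor. Neither strand was detected on all 10 DRG arrays, so that this filter gave no value. The tissue difference, described without a test, was 1.56 to 4.27 for miR-139-3p under the 9 alternatives, and for miR-139-5p it was 2.06 with quantile scaling and 0.92 without the sham groups.

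Leaving out 1 injury array gave differences from sham for miR-139-3p of -3.85 to -2.47 in denervation, -5.79 to -4.03 in entrapment and -7.26 to -7.11 in decompression in soleus, and of -0.74 to -0.51, -1.80 to -1.71 and -1.71 to -1.36 in the DRGs. For miR-139-5p they were 2.38 to 3.23, 0 to 0.33 and 0.47 to 1.68 in soleus, and -0.57 to -0.11, -1.57 to -1.38 and -1.57 to -1.48 in the DRGs. The tissue difference was 2.30 to 2.77 for miR-139-3p and 0.13 to 0.42 for miR-139-5p. With the replicate number as a block, miR-139-3p in the DRGs differed from sham by -1.53 in entrapment (limma adjusted p = 0.00986) and -1.28 in decompression (limma adjusted p = 0.0192), and the block changed no call. The use of the 4 processed values, the reassigned columns and the fit without sham were chosen after seeing the data. Causes were not tested.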
